A study of Mus musculus with 16 samples.

Results

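The mitochondrial ribosomal protein genes are described here in mouse stem cell colonies and in structures assembled from them. Members were the entries of the deposited expression table whose symbol consists of Mrpl or Mrps, a number and at most a trailing letter. This gave 77 genes among 31663 entries, 48 named Mrpl and 29 named Mrps. By current structures of the mammalian mitochondrial ribosome, 50 of them encode proteins of the large subunit, among them Mrps18a and Mrps30 despite their names. Of the rest, 26 encode proteins of the small subunit. The remaining member, Mrps36, is now placed in the oxoglutarate dehydrogenase complex and was counted in neither subunit. Mrpl33 was not analysed here.

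Mitochondrial ribosomes translate the few proteins encoded by mitochondrial DNA, all of them core subunits of the respiratory chain and ATP synthase. Their own proteins are encoded in the nucleus, made in the cytosol, imported and assembled with mitochondrial ribosomal RNA. The small subunit reads the messenger RNA and the large subunit forms the peptide bonds, and in the mouse blastocyst the trophectoderm is known for more active mitochondria than the inner cell mass.

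RNA was measured in 16 libraries, 2 for each of 8 groups, made with Smart-seq2, a full-length protocol for very small RNA inputs, from single picked colonies. RFP-labelled trophectoderm stem cells (TSC) and GFP-labelled induced pluripotent stem cells (iPSC) were either kept apart or mixed, and mixed cells assembled into structures with a red and a green part, separated by hand under the microscope. BMP4, a growth factor of the TGF-beta family, was present or absent during the final 24 hours, with harvest at day 3, and its dose is not stated. The groups were thus the assembled TSC part with BMP4, the assembled TSC part, TSC alone with BMP4, TSC alone, the assembled iPSC part with BMP4, the assembled iPSC part, iPSC alone with BMP4 and iPSC alone. All groups shared the medium with 12.5 ng/ml FGF4 and 500 ng/ml heparin, and plates coated with 5% Matrigel. Values are FPKM, which corrects fragment counts for transcript length and sequencing depth and is meant to allow comparison between genes.

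Absolute depth is unknown. Steps in the low values gave relative depths of 0.41 to 1.3 times the median library, which limits the precision of the shallower libraries. The lowest was that of the assembled iPSC part with BMP4, replicate 1. Next came iPSC alone with BMP4, replicate 2, at 0.6. Pou5f1, a pluripotency marker, lay between 0.0335 and 13.2 FPKM in the 8 libraries of TSC origin and between 49.5 and 326.3 FPKM in the 8 of iPSC origin. The highest value of TSC origin belonged to replicate 2 of the assembled TSC part. Elf5, a trophoblast marker, stood at 50.4 FPKM in 1 library, the assembled iPSC part with BMP4, replicate 2, and at most at 0.413 FPKM in the other libraries of iPSC origin. In TSC alone it was at 5.51 and 11.6 FPKM, below that library, and in the other libraries of TSC origin between 116.3 and 223.6 FPKM. These 2 libraries, with the highest Pou5f1 of TSC origin and the highest Elf5 of iPSC origin, are called the 2 marker outliers below, and results that change without them are given as such. Whether they contained cells of the other lineage was not tested, and their marker sums were not the highest of their origin. Eomes, another trophoblast stem cell marker, was at 0.219 and 0.0844 FPKM in TSC alone, against 2.41 and 2.03 FPKM in iPSC alone, which goes against the TSC label. With BMP4 it was at 14.3 and 13.8 FPKM in TSC alone, against 2.85 and 3.04 FPKM in iPSC alone. Cdx2, another defining trophectoderm marker, did not exceed 6.24 FPKM in any library of TSC origin. Summed TSC markers ranged from 524.5 to 7083 FPKM in libraries of TSC origin and from 125.2 to 807.9 FPKM in those of iPSC origin, and summed iPSC markers from 187.4 to 769.7 FPKM and from 354.8 to 1199 FPKM in the same order, so that both sums overlapped. Fibroblast marker sums reached 3.4 FPKM and endoderm marker sums 3.5 FPKM at most. The summed blood markers reached 53.0 FPKM in TSC origin and 8.24 FPKM in iPSC origin, and their part in the results was not tested.

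All 77 genes were expressed. Their means over the 16 libraries ran from 22.99 FPKM for Mrpl57 to 430.6 FPKM for Mrpl17, with a median of 111.0 FPKM. In all, 66 genes averaged at least 50 FPKM and 40 at least 100 FPKM, and 76 were at or above 5 FPKM in every library. The exception was Mrpl23, the counterpart of the bacterial protein L23 at the exit of the peptide tunnel. After Mrpl17 the highest means were those of Mrpl52 at 402.2 FPKM, Mrpl42 at 366.3 FPKM and Mrps14 at 329.7 FPKM. The lowest after Mrpl57 were Mrpl1 at 24.3 FPKM, Mrpl35 at 29.3 FPKM and Mrps27 at 32.4 FPKM. Genes for proteins of the same particle thus had FPKM values far apart. FPKM corrects for length, but its annotation is not stated, and 21 members overlap the span of another gene. How far these values reflect messenger RNA levels was not tested.

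The 250 bases before the annotated start were read for the 68 genes found in the RefSeq promoter table of GRCm38.p6, which gave 74 windows. These coordinates belong to that build, not to mm9. Motifs of 3 factors known to act on such genes were searched on both strands: CCGGAAG, bound by ETS factors such as GABP, CGCATGCG, the core of the NRF1 site, and AAGATGGCG, bound by YY1. The ETS letters stood in 18 windows (24.3%, against 6.91% of all 32851 promoter windows), those of NRF1 in 7 (9.46% against 1.55%) and those of YY1 in 2 (2.7% against 0.606%). The windows were also richer in CpG, with a median of 17 CpG and 58.6% GC, against 6 CpG and 52.4% GC in all windows, and the motifs themselves hold CpG. Mrpl17, the most abundant gene, has both an ETS and an NRF1 match (chr7:105811088-105811337, minus strand). Mrps26, the gene with the largest fall on assembly in iPSC, has an ETS match just before its start (chr2:130563507-130563756, plus strand). Mrpl23, the gene with the widest range, has no match to the 3 motifs in its window (chr7:142532782-142533031, plus strand). That window lies inside the annotated span of Mrpl23, which starts at 142532467, and the bases before that start were not read. Mrpl55, which was higher in both assembled parts, has no match in its window either (chr11:59202236-59202485, plus strand). The windows are printed 5′ to 3′ along the gene, with motif matches in capitals.
Mrpl17: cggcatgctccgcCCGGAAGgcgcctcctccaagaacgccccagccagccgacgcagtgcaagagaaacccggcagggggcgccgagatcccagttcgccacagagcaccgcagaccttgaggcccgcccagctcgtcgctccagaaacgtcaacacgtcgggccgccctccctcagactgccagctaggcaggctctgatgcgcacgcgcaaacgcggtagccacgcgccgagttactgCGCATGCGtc
Mrps26: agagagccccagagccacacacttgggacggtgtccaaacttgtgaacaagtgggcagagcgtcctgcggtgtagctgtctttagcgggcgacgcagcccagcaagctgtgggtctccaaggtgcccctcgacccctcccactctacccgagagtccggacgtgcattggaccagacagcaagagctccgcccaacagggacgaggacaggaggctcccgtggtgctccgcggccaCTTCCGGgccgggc
Mrpl23: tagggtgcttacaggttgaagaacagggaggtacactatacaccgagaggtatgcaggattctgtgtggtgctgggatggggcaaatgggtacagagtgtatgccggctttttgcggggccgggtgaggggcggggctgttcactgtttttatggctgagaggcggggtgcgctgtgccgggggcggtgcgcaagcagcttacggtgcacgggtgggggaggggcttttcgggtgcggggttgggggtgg
Mrpl55: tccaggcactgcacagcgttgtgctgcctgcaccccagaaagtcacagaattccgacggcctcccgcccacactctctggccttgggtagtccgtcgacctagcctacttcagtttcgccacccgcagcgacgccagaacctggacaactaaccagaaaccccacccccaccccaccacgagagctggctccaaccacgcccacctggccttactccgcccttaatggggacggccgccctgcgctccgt
Among the 18 genes with the ETS letters, 4 were higher and 2 lower in TSC alone than in iPSC alone by the test described below. Among the 50 without them, 13 were higher and 3 lower. The medians of their differences, 0.16 with and 0.20 without the letters, lay close together. Of all genes tested, 18.4% were higher and 24% lower in TSC alone than in iPSC alone.

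The summed level of the 77 genes ranged from 8261 to 13780 FPKM in libraries of TSC origin and from 8335 to 10090 FPKM in libraries of iPSC origin. As a share of the whole table it came to 1.215% to 1.506% in TSC origin and to 1.046% to 1.221% in iPSC origin. The shares overlapped only at the edge, where the lowest TSC library lay below the highest iPSC library, and the sums overlapped widely. The large subunit genes summed to 1.712 to 1.998 times the small subunit genes in TSC origin and to 2.066 to 2.339 times in iPSC origin, with no overlap. That separation rested on few genes: without Mrpl23, Mrps24, Mrps14 and Mrps6, chosen after their values were seen, the ratio was 2.43 to 2.71 in TSC origin and 2.44 to 2.64 in iPSC origin. In bulk samples of this kind, fewer cells of a type and less RNA per cell cannot be told apart.

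**Figure D1:**
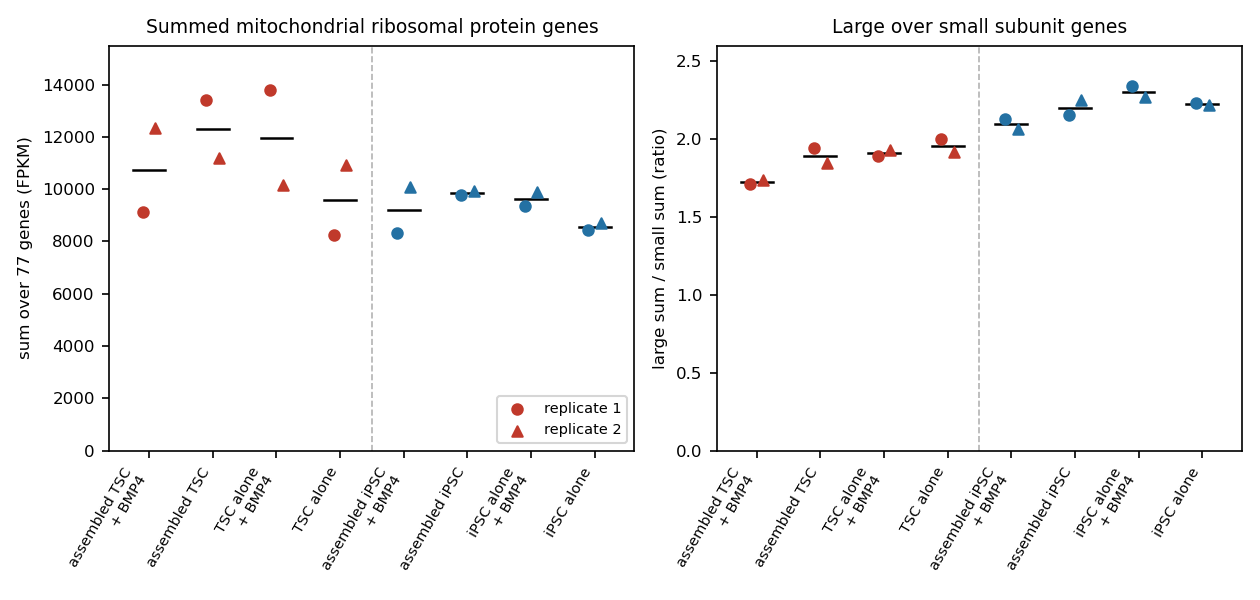
Summed FPKM of the 77 genes (left) and the ratio of summed large to summed small subunit genes (right) in each library, by group. Circles are replicate 1, triangles replicate 2 and bars the mean of the 2; red marks TSC origin and blue iPSC origin, and the ratio stays at or below 1.998 in every red library and at or above 2.066 in every blue one.

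Between groups, the means of a gene on the log2(FPKM + 1) scale spanned a median of 0.98, and 37 genes spanned more than 1. Mrpl23 spanned most, 6.22, followed by Mrps26 with 2.16, Mrps6 with 2.12, Mrps24 with 1.92, Mrpl52 with 1.86 and Mrpl2 with 1.78. Replicates lay more than 2-fold apart for 4 genes in TSC alone, for 3 in the assembled iPSC part with BMP4, for 1 in TSC alone with BMP4 and for none in the other groups. Over the 16 libraries, the 2926 pairs of genes had a median Pearson r of 0.261, and 70.5% of pairs were above 0; these libraries also share depth and scaling differences. The median was 0.254 for pairs within a subunit and 0.263 for pairs between subunits. Mrpl23 had the lowest median correlation with the others, -0.227, and Mrpl15 the highest, 0.511.

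**Figure D2:**
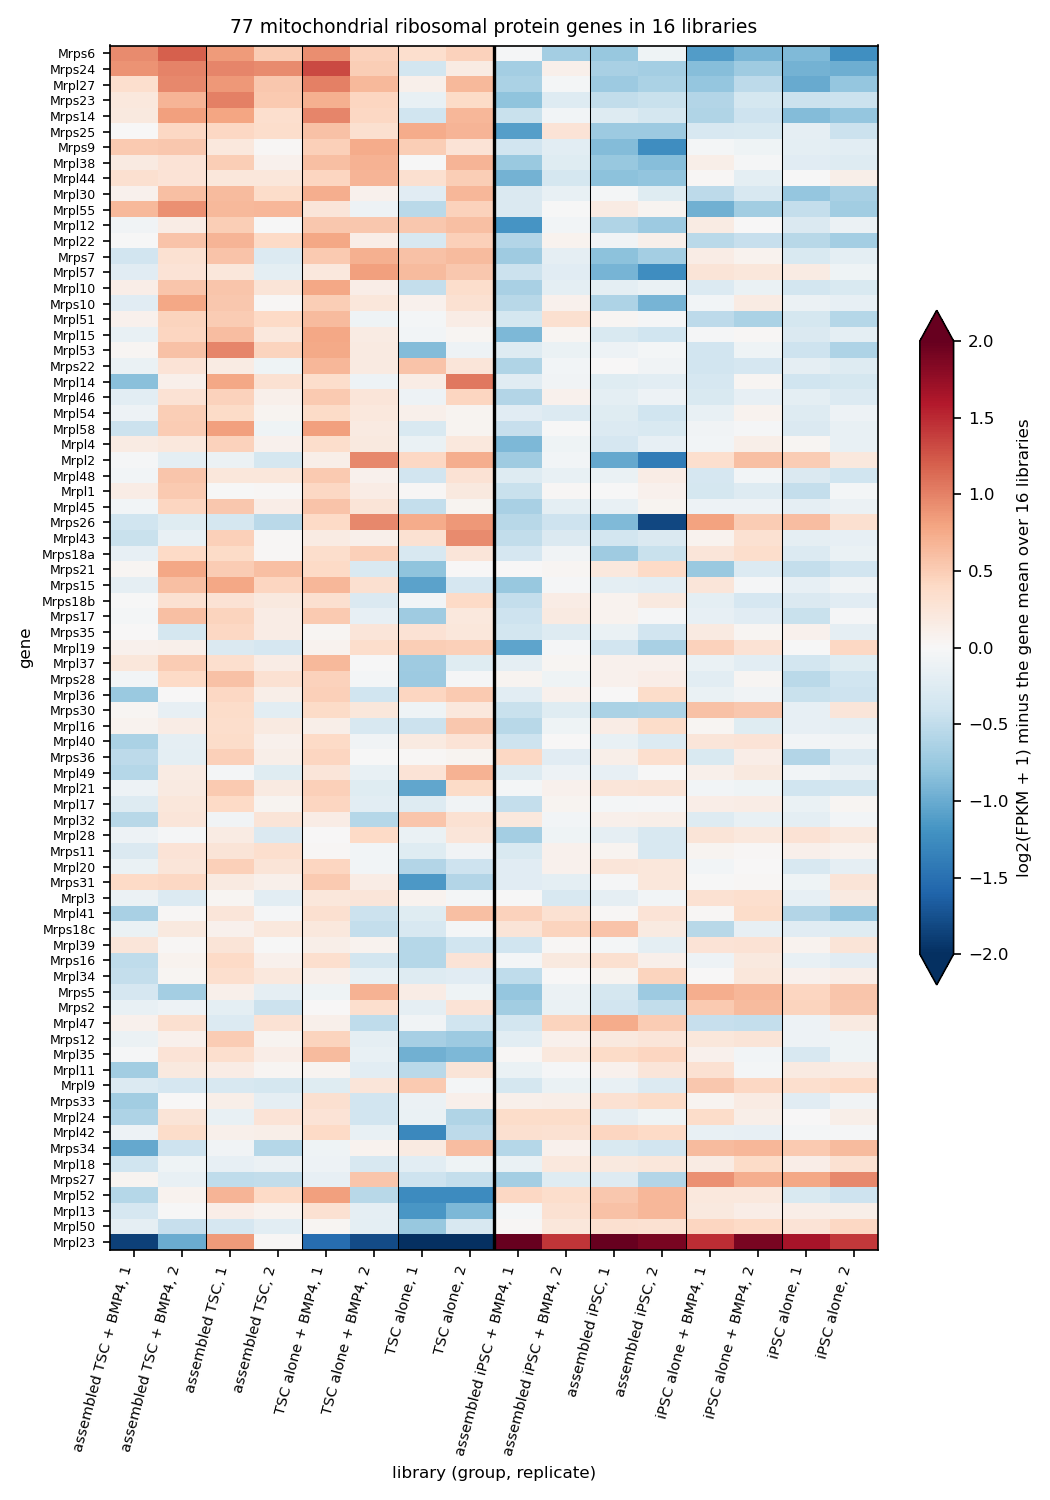
Level of each of the 77 genes (rows) in each of the 16 libraries (columns), as log2(FPKM + 1) minus the mean of that gene over all libraries, with colours limited to 2 in either direction. Rows are ordered by the mean difference between TSC and iPSC origin, with Mrps6, Mrps24 and Mrpl27 at the top and Mrpl23 at the bottom; the thick line separates TSC origin (left) from iPSC origin (right).

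Differences were tested with limma on log2(FPKM + 1) over 13406 genes, and a gene was called at a Benjamini-Hochberg adjusted p under 0.05. Each comparison set 4 libraries against 4, averaging over the 2 strata of the other factor, and changes are given ± SE on the log2 scale. Separate cultures are not stated for the 2 libraries of a group, and the p-values reflect no more than the spread between libraries.

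The cell of origin came with 24 calls in cells cultured alone and 25 in assembled parts. With upper quartile rescaling, assembly in iPSC called more genes, 31 against 25 and 18 for origin, and likewise in fits of only the libraries compared, with 28 against 23 and 16. The shares of all genes called under these settings are not given here. In cells cultured alone, 18 genes were higher and 6 lower in TSC than in iPSC. Over all genes tested, 42.3% were called, 18.4% higher and 24% lower. The 24 genes make 31.2% of the family, and its median difference was 0.18, against -0.10 over all genes. In assembled parts, 23 genes were higher and 2 lower in the TSC part than in the iPSC part, 32.5% of the family, against 27% of all genes, 16.5% higher and 10.5% lower. There the family's median was 0.28 and that of all genes 0.08. In both comparisons the family thus held more higher than lower calls, while its share of calls was below the background in cells cultured alone and near it in assembled parts. By subunit, 8 of 26 small and 10 of 50 large subunit genes were higher in TSC alone, and 9 of 26 and 14 of 50 in the assembled TSC part. Of these calls, 16 of 24 in cells cultured alone and 8 of 25 in assembled parts were kept whichever library was left out. The count of 25 in assembled parts rested on single libraries. It was 9 without replicate 2 of the assembled iPSC part, replicate 1 of the assembled TSC part, or replicate 2 of the BMP4-treated TSC part. It was 13 and 14 without replicate 1 of the assembled iPSC part, treated with BMP4 and untreated.

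The 2 comparisons share no library. Of the genes higher in TSC alone, 12 (66.7%) were also higher in the assembled TSC part, where they made 52.2% of the higher calls, and none was called in opposite directions. They were Mrpl12, Mrpl27, Mrpl38, Mrpl44, Mrpl55, Mrps6, Mrps7, Mrps9, Mrps14, Mrps23, Mrps24 and Mrps25. Mrpl23 and Mrpl50 were lower in both. In assembled parts, the calls of Mrps7, Mrps14, Mrpl50, Mrpl12 and Mrpl55 were lost in 9, 5, 5, 3 and 3 of 16 fits that left out a library. Mrps7 and Mrpl12 were also not called there in fits of only the libraries compared (limma adjusted p = 0.105 and 0.061). The refits of Mrps25 are not given here. Across the 77 genes, which are not independent replicates, the 2 differences had a Pearson r of 0.82, or 0.72 without Mrpl23.

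**Figure D3:**
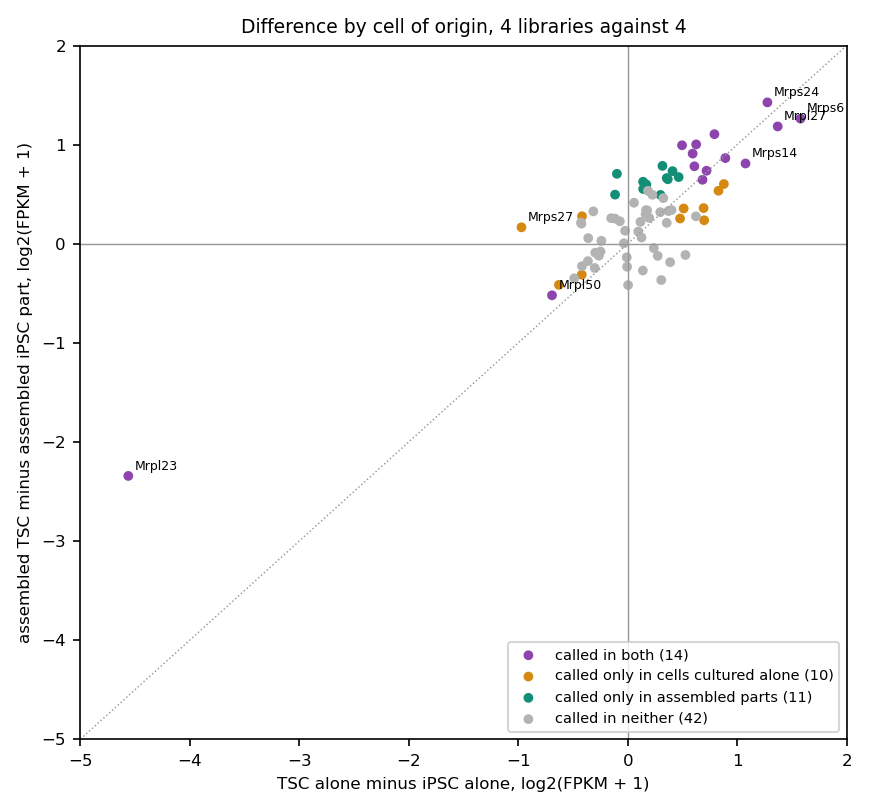
Difference in log2(FPKM + 1) of each gene between TSC alone and iPSC alone (x axis) and between the assembled TSC part and the assembled iPSC part (y axis), each from 4 libraries against 4. Colours show in which comparison limma called the gene; 14 genes were called in both, and Mrpl23 stands far below the others at -4.56 and -2.34.

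Mrps6, the counterpart of bacterial S6 in the platform of the small subunit, rose most in TSC alone. It stood at 228.1 and 164.9 FPKM in TSC alone with BMP4 and at 150.7 and 165 FPKM in TSC alone, against 54.8 and 63.3 FPKM in iPSC alone with BMP4 and 64.4 and 50.4 FPKM in iPSC alone. Every TSC library was well above the highest iPSC library. The change was 1.58 ± 0.20 (limma adjusted p = 6.45e-05). Between assembled parts, its levels were 230.2 and 274.8 FPKM with BMP4 and 217.3 and 170.8 FPKM without it in the TSC part, against 117.3 and 74.6 FPKM with BMP4 and 70.5 and 112.2 FPKM without it in the iPSC part. These groups did not overlap either, and the change was 1.26 ± 0.20 (limma adjusted p = 0.000686). Slc5a3, whose annotated span overlaps that of Mrps6, averaged under 1 FPKM in both origins.

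Mrps24, related to bacterial S3 at the entry of the messenger RNA channel, had the largest rise between assembled parts. TSC alone had 601.1 and 337.3 FPKM with BMP4 and 186.1 and 268.8 FPKM without it, against 132.5 and 146.2 FPKM with BMP4 and 123.8 and 121.1 FPKM without it in iPSC alone. The assembled TSC part had 448.8 and 480.1 FPKM with BMP4 and 472.1 and 462.6 FPKM without it, against 149.4 and 257.2 FPKM with BMP4 and 153.7 and 150.4 FPKM without it in the assembled iPSC part. The TSC libraries were above all iPSC libraries in each comparison, and the highest value of the iPSC part came from the library with Elf5 at 50.4 FPKM. The changes were 1.28 ± 0.21 in cells cultured alone and 1.43 ± 0.21 in assembled parts (limma adjusted p = 0.000385 and 0.000392).

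Mrpl27, the counterpart of bacterial L27 close to the peptidyl transferase centre, averaged 219 ± 54.8 FPKM in TSC alone and 82.6 ± 11.6 FPKM in iPSC alone (SD, n = 4 each), a change of 1.37 ± 0.20. In assembled parts it averaged 228.3 ± 45.5 FPKM in the TSC part and 100.3 ± 24.0 FPKM in the iPSC part, a change of 1.18 ± 0.20. Neither pair of groups overlapped, and both changes were called (limma adjusted p = 0.000174 and 0.000967).

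Mrps14, related to bacterial S14, averaged 427.4 ± 153.3 FPKM in TSC alone and 192.5 ± 27.8 FPKM in iPSC alone, a change of 1.08 ± 0.24. Mrps9, a neighbour of S14 in the head of the small subunit and the counterpart of bacterial S9, rose by 0.62 ± 0.14 in cells cultured alone and by 1.0 ± 0.14 in assembled parts. Its level was 67.0 ± 11.5 FPKM in the assembled TSC part and 33.9 ± 10.7 FPKM in the assembled iPSC part. Mrps23, a protein found in mitochondrial and not in bacterial ribosomes, rose by 0.79 ± 0.19 and 1.11 ± 0.19, and Mrps22, which is mutated in a human respiratory chain disorder, by 0.70 ± 0.17 in cells cultured alone. Mrpl30, related to bacterial L30, rose by 0.88 ± 0.21 in cells cultured alone. Mrpl44, a protein with an RNase III fold linked to human cardiomyopathy, rose by 0.50 ± 0.15 and 0.99 ± 0.15, and Mrpl38 rose by 0.59 ± 0.18 and 0.91 ± 0.18. The calls of Mrpl44 and Mrpl38 in cells cultured alone were lost in 4 and 2 of 16 fits that left out a library, with adjusted p up to 0.0775 and 0.061.

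Mrpl12, a stalk protein also known to bind the mitochondrial RNA polymerase, averaged 318.6 ± 7.75 FPKM in TSC alone and 209.8 ± 28.1 FPKM in iPSC alone (change 0.61 ± 0.21). Mrps7, the counterpart of bacterial S7, averaged 86.6 ± 4.47 FPKM in TSC alone and 53.9 ± 8.02 FPKM in iPSC alone (0.68 ± 0.21). These were weaker calls, lost in 8 and 3 of 16 fits that left out a library, with limma adjusted p up to 0.0948 and 0.0566. The span of Mrps7 overlaps Mif4gd and Gga3. Mif4gd averaged 51.7 FPKM in TSC origin and 20.3 FPKM in iPSC origin, and Gga3 8.3 and 6.0 FPKM, the same direction as Mrps7. Whether reads were counted by strand is not given in the sources used here, and the part of the overlap was not tested. Mrpl57 was higher in the assembled TSC part, at 22.2 ± 4.33 FPKM, than in the assembled iPSC part, at 13.4 ± 4.47 FPKM. That call was lost in 3 of 16 fits that left out a library (limma adjusted p up to 0.0567), and Ska3, which overlaps the span of Mrpl57, averaged 30.2 FPKM in TSC origin and 35.4 FPKM in iPSC origin, above Mrpl57 itself.

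Mrpl23 went the other way, and by far more. TSC alone had 24.2 and 20.1 FPKM with BMP4 and 7.25 and 0.737 FPKM without it, against 200.9 and 268.1 FPKM with BMP4 and 225.7 and 191.7 FPKM without it in iPSC alone. The highest of these TSC libraries was thus far below the lowest iPSC library. The change was -4.56 ± 0.39 (limma adjusted p = 4.12e-06). In assembled parts, the TSC part had 18.8 and 35.6 FPKM with BMP4 and 129.3 and 72.3 FPKM without it, against 293.3 and 194 FPKM with BMP4 and 295.7 and 269.1 FPKM without it in the iPSC part. The groups again did not overlap, and the change was -2.34 ± 0.39 (limma adjusted p = 0.000916). Both calls held when any library was left out, with adjusted p up to 5.35e-05 and 0.00584.

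Mrpl23 lies at chr7:142532467-142540747 (GRCm38.p6), between Tnnt3 and Nctc1 and near H19 and Igf2, an imprinted pair. These neighbours were looked at after the values of Mrpl23 were seen. Igf2, a growth factor gene strongly expressed in trophoblast, differed in the opposite direction, at 577.9 and 326.6 FPKM in TSC alone with BMP4 and 1345 and 1104 FPKM in TSC alone, against 1.67 and 8.0 FPKM in iPSC alone with BMP4 and 1.32 and 2.41 FPKM in iPSC alone (change 7.62 ± 0.75, limma adjusted p = 1.07e-05). Tnnt3 was also higher in TSC alone (1.91 ± 0.50, limma adjusted p = 0.00828), as was Lsp1 (2.85 ± 0.37). H19, a noncoding RNA, was lower (-2.69 ± 0.76, limma adjusted p = 0.0128), with 1 library of iPSC alone with BMP4 at 85.8 FPKM and the others of that comparison at or below 9.57 FPKM. Nctc1 was at or near 0 in every library. The pseudogene Mrpl23-ps1 followed Mrpl23 at 13.7% to 48.0% of its level in every library. The 48.0% came from replicate 2 of TSC alone, at 0.353 against 0.737 FPKM, and the other libraries reached at most 24.3%. Reads may be split between the pair, and how far this changes the values of either was not tested.

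The other genes lower in TSC alone changed less. Mrps27, a pentatricopeptide repeat protein that binds the 12S ribosomal RNA, was at 28.5 ± 10.7 FPKM in TSC alone and 54.6 ± 4.27 FPKM in iPSC alone (change -0.97 ± 0.18, limma adjusted p = 0.00102). Mrpl50, a mitochondria-specific large subunit protein, was at 30.3 ± 6.92 FPKM in TSC alone and 48.7 ± 2.34 FPKM in iPSC alone. Mrpl13 and Mrpl18, related to bacterial L13 and L18, differed by -0.63 ± 0.15 and -0.42 ± 0.14, and Mrpl39 by -0.42 ± 0.15. The calls of Mrpl18 and Mrpl39 were lost in 4 and 9 of 16 fits that left out a library, with limma adjusted p up to 0.101 and 0.123. The span of Mrpl18 overlaps the abundant gene Tcp1, which averaged 307.1 FPKM in TSC origin and 486.8 FPKM in iPSC origin, the same direction as Mrpl18. The part of that overlap was not tested. In assembled parts, Mrpl50 differed by -0.52 ± 0.15 (limma adjusted p = 0.0208, and 0.0812 without the 2 marker outliers).

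Assembly was compared next, within each cell of origin. In TSC, 3 genes were higher and 3 lower in the assembled part than in TSC alone, 7.79% of the family, against 17.6% of all genes, 6.97% higher and 10.6% lower. Its median difference was 0.04, and that of all genes was 0 at 2 decimals. In iPSC, 3 genes were higher and 14 lower in the assembled part than in iPSC alone, 22.1% of the family, against 26.6% of all genes, 5.95% higher and 20.6% lower. There the median was -0.05, against -0.19 over all genes. The share called was thus under the background in both origins. In TSC the count was 2 without the 2 marker outliers, and 18 without replicate 1 of TSC alone with BMP4. It was also 2 without replicate 2 of TSC alone with BMP4 or of the assembled TSC part, and 3 without replicate 1 of the BMP4-treated assembled TSC part. In iPSC the count was 10 without replicate 1 of iPSC alone with BMP4, and 11 without replicate 2 of iPSC alone or of the assembled iPSC part.

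The balance of directions on assembly depended on the scaling. In iPSC, upper quartile rescaling called 24 higher and 7 lower, quantile normalization 15 and 8, a correction for transcript length and GC content 15 and 10, and totals rescaled without predicted names 4 and 22. Upper quartile rescaling moved the median of all genes to 0.04 and that of the family to 0.28. In TSC, quantile normalization called 13 higher and 4 lower, upper quartile rescaling 11 and 3, and totals rescaled without predicted names 4 and 8. In iPSC, 9 genes kept their call under all 4 of these, 3 higher and 6 lower, and in TSC 5 did, 2 higher and 3 lower. The shares of all genes called under each scaling are not given here, so these counts do not show whether the shift was particular to the family.

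Mrps26, a mitochondria-specific small subunit protein, was lower in both assembled parts. It had 26.6 and 29.7 FPKM with BMP4 and 27.6 and 24.2 FPKM without it in the assembled TSC part, against 47.0 and 70.4 FPKM with BMP4 and 60.3 and 65.9 FPKM without it in TSC alone. The assembled iPSC part had 24.0 and 26.4 FPKM with BMP4 and 18.8 and 9.33 FPKM without it, against 62.7 and 50.9 FPKM with BMP4 and 54.9 and 44.5 FPKM without it in iPSC alone. No assembled library reached any library of cells cultured alone. The change was -1.13 ± 0.21 in TSC (limma adjusted p = 0.00453) and -1.48 ± 0.21 in iPSC (adjusted p = 0.000746), kept under all 4 scalings and without any library.

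In iPSC, the next falls were those of Mrps27, Mrpl2, Mrps5 and Mrps2. Mrps27 had 18.2 and 25.1 FPKM with BMP4 and 24.6 and 19.5 FPKM without it in the assembled part, against 57.3 and 50.1 FPKM with BMP4 and 51.8 and 59.0 FPKM without it in iPSC alone. The groups did not overlap, and the change was -1.29 ± 0.18 (limma adjusted p = 0.000746). Mrpl2, the counterpart of bacterial L2 that bridges the subunits, was at 49.3 ± 20.8 FPKM in the assembled iPSC part and 109.2 ± 12.9 FPKM in iPSC alone (-1.21 ± 0.21). Mrps5 and Mrps2, related to bacterial S5 and S2, fell by 1.08 ± 0.20 and 0.95 ± 0.17 on the log2 scale. Mrps34, needed for a stable small subunit and mutated in human Leigh syndrome, was at 71.7 ± 14.2 FPKM in the assembled iPSC part and 133.2 ± 5.38 FPKM in iPSC alone (-0.90 ± 0.20). These 6 genes were called lower under all 4 scalings. The changes of Mrps30 (-0.79 ± 0.16) and Mrpl44 (-0.71 ± 0.15) were called under 3 and 2 of them.

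Mrpl2 and Mrps34 were also called lower in the assembled TSC part. Mrpl2 was at 72.2 ± 6.91 FPKM there and 122.8 ± 31.0 FPKM in TSC alone (-0.73 ± 0.21), and Mrps34 at 62.0 ± 16.8 FPKM in the assembled TSC part and 101.2 ± 23.0 FPKM in TSC alone (-0.71 ± 0.20). Both calls were lost without the 2 marker outliers (limma adjusted p = 0.0818 and 0.0713).

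Few genes rose on assembly. Mrpl55, related to bacterial L31, was at 134.6 ± 13.4 FPKM in the assembled TSC part and 84.6 ± 24.6 FPKM in TSC alone (0.71 ± 0.20), and at 80.6 ± 10.5 FPKM in the assembled iPSC part and 49.6 ± 6.68 FPKM in iPSC alone (0.69 ± 0.20). In iPSC, Mrps18c rose by 0.66 ± 0.18 and Mrps6 by 0.65 ± 0.20. The calls of Mrpl55 in both origins and of Mrps18c were lost without the 2 marker outliers, at limma adjusted p of 0.0836, 0.08 and 0.0573. That of Mrps6 was lost in 5 of 16 fits that left out a library, with adjusted p up to 0.138 without replicate 2 of the assembled iPSC part. In TSC, Mrps31 was also called higher, and that call was lost in 12 of 16 such fits. Without the 2 marker outliers it was not called (0.56, limma adjusted p = 0.0886). Mrps31 stood at 17.2 and 26.0 FPKM in TSC alone and at 42.2 FPKM or more in every other library of TSC origin. Those 2 low libraries also enter its BMP4 comparison below.

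Longer transcripts tended to the lower side on assembly. Over the 77 genes, Spearman's rho between transcript length and the difference was -0.305 in TSC and -0.372 in iPSC, against -0.157 and -0.081 over the 13387 tested genes with a length. The family's transcripts are short, with a median of 1339 bases against 2678 bases. The genes share libraries, so these values describe the libraries, and the part of length in the calls was tested only by the correction named above.

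**Figure D4:**
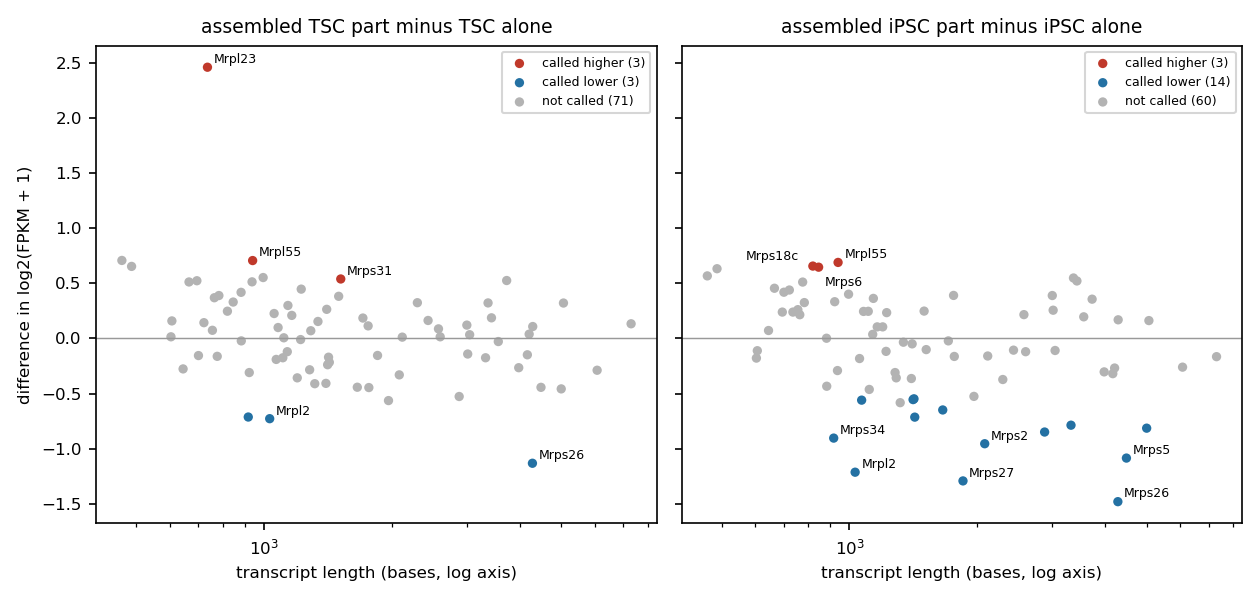
Difference in log2(FPKM + 1) between assembled part and cells cultured alone against transcript length (log axis), in TSC (left) and in iPSC (right), with 1 point per gene. Red points were called higher and blue points lower by limma, and called genes with the larger changes are named; Mrps26 is the lowest point in both panels at -1.13 and -1.48, and Mrpl23 the highest in TSC at 2.46.

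Mrpl23 rose on assembly in TSC by 2.46 ± 0.39 (limma adjusted p = 0.00232, and 0.00836 without the 2 marker outliers, where the change was 2.67). The values given above show that this difference lay in the cultures without BMP4, at 129.3 and 72.3 FPKM in the assembled TSC part against 7.25 and 0.737 FPKM in TSC alone. With BMP4, 18.8 and 35.6 FPKM in the assembled TSC part overlapped with 24.2 and 20.1 FPKM in TSC alone. Whether the 2 strata differ was not tested. Summed iPSC markers are given beside these values. Without BMP4 they came to 769.7 and 654.6 FPKM in the assembled TSC part, against 187.4 and 263.5 FPKM in TSC alone. With BMP4 they came to 238.3 and 660.9 FPKM in the assembled TSC part, against 464.5 and 230.3 FPKM in TSC alone. In replicate 2 of the assembled TSC part, Mrpl23 was at 72.3 FPKM without BMP4 and 35.6 FPKM with it, at similar marker sums. Pou5f1 was at 2.33 and 13.2 FPKM in the assembled TSC part without BMP4, against 0.0335 and 1.03 FPKM in TSC alone. In that part without BMP4, its lower value belonged to replicate 1, which had the higher Mrpl23. The part of these markers in the rise was not tested. The Mrpl23 values of TSC origin all remained below those of every library of iPSC origin.

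The assembly effects of TSC and iPSC were compared with an interaction term, which called 2 members, both higher (2.6%), against 4.15% of all genes, 2.94% higher and 1.22% lower. Mrps27 fell on assembly in iPSC and had a difference of 0.17 ± 0.18 between assembled parts, and its interaction was 1.14 ± 0.26 (limma adjusted p = 0.0331). It was not called under any of the 4 other scalings. For Mrpl23 the interaction was 2.22 ± 0.56 (limma adjusted p = 0.0443), called under 2 of them and not called without the 2 marker outliers (2.28, limma adjusted p = 0.0635). Mrpl39 and Mrps31 came next, at 0.70 ± 0.21 and 0.64 ± 0.23, and were not called. The count fell to 1 or 0 in 13 of 16 fits that left out a library; it was 2 without either replicate of TSC alone, where both genes were called. It was also 2 without replicate 2 of the BMP4-treated assembled iPSC part, where Mrpl23 was not among the calls.

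**Figure D5:**
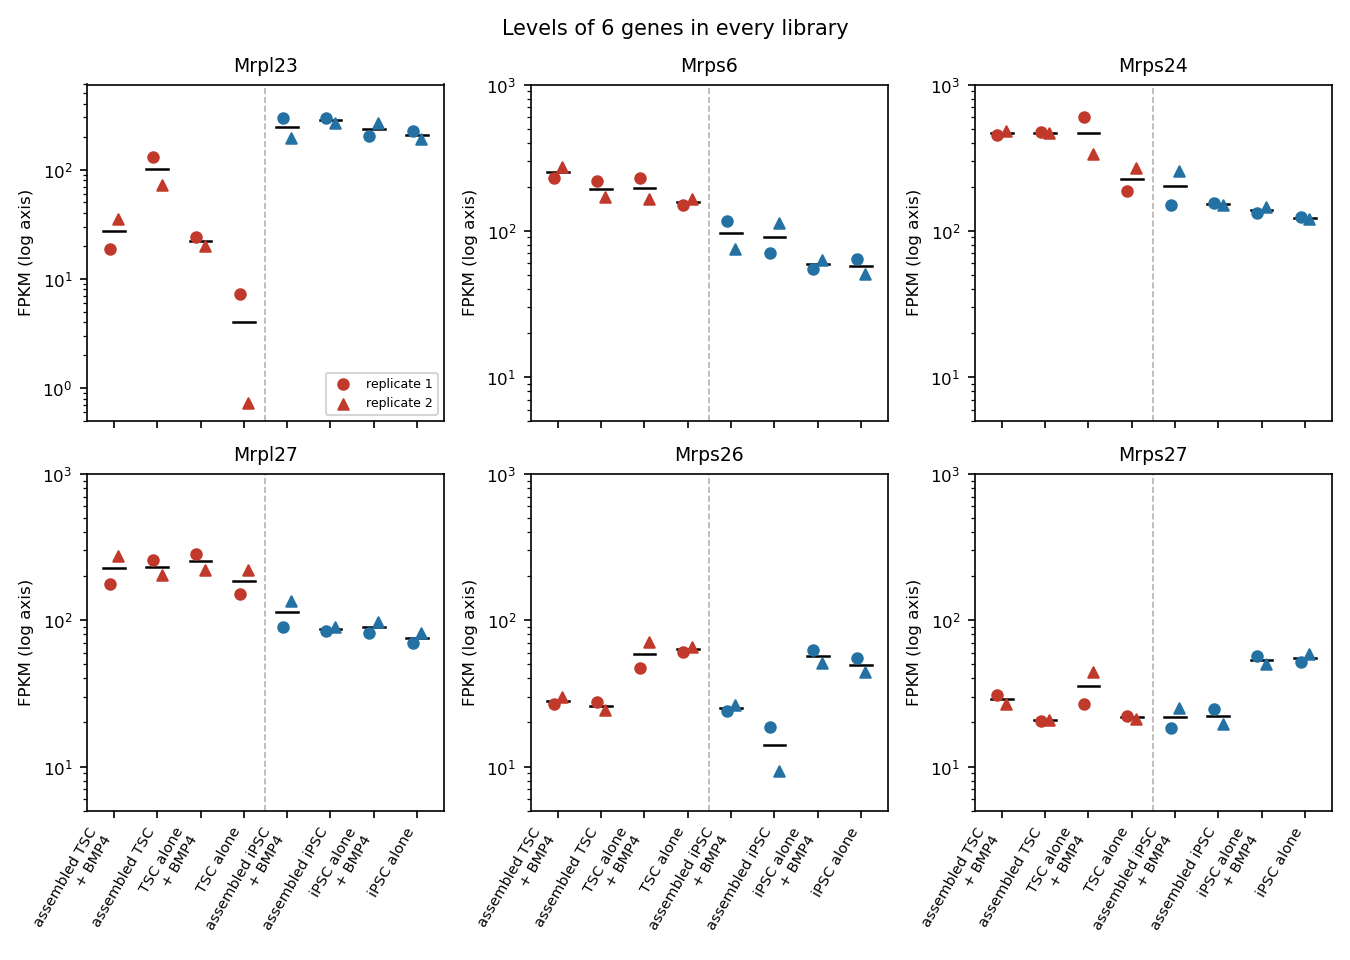
FPKM (log axes) of 6 genes in each library, by group. Circles are replicate 1, triangles replicate 2 and bars the mean of the 2; red marks TSC origin and blue iPSC origin. Mrpl23 is lower in every red library than in every blue one, Mrps6 and Mrpl27 are also apart, in the other direction, Mrps24 is higher in red than in blue but overlaps at 186.1 FPKM in TSC alone and 257.2 FPKM in the assembled iPSC part with BMP4, Mrps26 is lower in all assembled groups, and Mrps27 is highest in iPSC alone with and without BMP4.

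BMP4 came with few calls. In TSC, 1 member was called, Mrps31 (1.3%), against 7.03% of all genes (3.63% higher and 3.41% lower). Mrps31, a mitochondria-specific small subunit protein, had 52.5 and 52.6 FPKM in the assembled TSC part with BMP4 and 57.0 and 43.7 FPKM in TSC alone with BMP4, against 44.9 and 42.2 FPKM in the assembled TSC part and 17.2 and 26 FPKM in TSC alone. The lowest library with BMP4 lay between the values of the assembled part without it, so the groups overlapped. The change was 0.73 ± 0.16 (limma adjusted p = 0.0191). It was not called without the 2 marker outliers, nor in a fit of the TSC libraries alone (limma adjusted p = 0.074 and 0.111). Leaving out single libraries gave 0 calls without replicate 2 of the assembled TSC part or replicate 1 of its BMP4-treated form. It gave 4 without replicate 2 of TSC alone with BMP4, 3 without replicate 1 of TSC alone, and 2 without replicate 2 of TSC alone or of the BMP4-treated assembled part. The next smallest p-values were those of Mrpl43 (-0.52 ± 0.17), Mrps27 and Mrpl35 (0.53 ± 0.18), none of them called.

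In iPSC, limma called 0 members for BMP4, against 0.186% of all genes (0.104% higher and 0.0821% lower). The smallest adjusted p was 0.27, for Mrps9, at 46.6 ± 5.04 FPKM with BMP4 and 35.4 ± 12.2 FPKM without it (0.45 ± 0.14). Mrps26 at 0.53 ± 0.21, Mrpl57 at 0.48 ± 0.19 and Mrpl47 at -0.54 ± 0.22 followed.

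Across the 7 comparisons, 33 of the 77 genes were called in no comparison and 44 in at least 1 (57.1%), against 64.9% of all genes tested. The 33 included 3 of the 4 most abundant genes, Mrpl17, Mrpl42 and Mrpl52. Mrpl52 had a wide range between groups but also between replicates, at 650.9 and 250.2 FPKM in TSC alone with BMP4. Mrpl3, the counterpart of bacterial L3, averaged 56.4 ± 5.44 FPKM in the assembled TSC part and 56.3 ± 5.49 FPKM in the assembled iPSC part. Mrpl11, a stalk base protein, was at 134.3 ± 31.2 FPKM in TSC alone and 158.7 ± 15.2 FPKM in iPSC alone, and Mrps12, related to the bacterial decoding protein S12, at 123.8 ± 50.4 FPKM in TSC alone and 151.7 ± 20.1 FPKM in iPSC alone. Mrps28 was at 243.2 ± 77.7 FPKM in TSC alone and 206 ± 37.0 FPKM in iPSC alone, and Mrps36 at 170.4 ± 26.1 FPKM in TSC alone and 131.1 ± 28.3 FPKM in iPSC alone.

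The S18 family has 3 paralogs. Mrps18a, which sits in the large subunit, was called between assembled parts (0.55 ± 0.18), at 132 ± 25.2 FPKM in the TSC part and 89.6 ± 16.7 FPKM in the iPSC part. Mrps18b was called nowhere and had the highest mean of the 3 over all libraries, 267.4 FPKM. Mrps18c, the form most like bacterial S18 in place, was called on assembly in iPSC, at 272.4 ± 33.0 FPKM in the assembled part and 172.5 ± 19.6 FPKM in iPSC alone. The call of Mrps18a was lost in 5 of 16 fits that left out a library, with limma adjusted p up to 0.139.

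Mitochondrial ribosomal proteins with other symbols were read beside the family. Dap3, a GTP-binding small subunit protein, averaged 137.2 ± 29.7 FPKM in TSC alone and 88.3 ± 15.3 FPKM in iPSC alone (0.62 ± 0.18, limma adjusted p = 0.0127) and was also higher in the assembled TSC part (0.67 ± 0.18). Gadd45gip1, a large subunit protein, was lower in the assembled part in both origins, with changes of -0.68 ± 0.18 in TSC and -1.40 ± 0.18 in iPSC, and lower in TSC alone than in iPSC alone (-0.83 ± 0.18). Ptcd3, a pentatricopeptide repeat protein of the small subunit like Mrps27, was lower in the assembled iPSC part (-0.88 ± 0.18) and lower in TSC alone than in iPSC alone (-0.47 ± 0.18). Aurkaip1 and Chchd1 were called in none of these 4 comparisons.

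Other parts of mitochondrial gene expression were counted from lists. All counts from lists, here and below, were made under the deposited scaling alone. The family's balance of directions on assembly depended on the scaling, and whether that of the lists did was not tested. In the assembled iPSC part, 20.6% of all genes were lower and 5.95% higher than in iPSC alone. Of 18 translation factors, 5 were lower and 2 higher in the assembled iPSC part, among the lower Tufm, the elongation factor Tu (-1.16 ± 0.19), and Gfm1, the elongation factor G (-1.15 ± 0.25). Of 24 ribosome assembly factors, 8 were lower and 0 higher there, among them the rRNA methyltransferase Mrm2 (-1.11 ± 0.18) and the helicase Dhx30 (-0.92 ± 0.16). Of 17 mitochondrial aminoacyl-tRNA synthetases, 8 were lower and 1 higher, Lars2 (1.78 ± 0.27), which had the smallest adjusted p of that list. Of 19 genes of mitochondrial DNA maintenance and transcription, 6 were lower and 2 higher, with Nrf1 (-1.60 ± 0.20), Gabpb1 (-1.05 ± 0.17) and Tfam (-1.05 ± 0.17) among the lower. The medians of these 4 lists lay at -0.45, -0.53, -0.57 and -0.23, against -0.05 for the family and -0.19 over all genes. In the assembled TSC part against TSC alone, the same lists, of 18, 24, 17 and 19 genes, had 0, 4, 3 and 6 lower genes. They had 0, 0, 0 and 1 higher genes. Over all genes, 10.6% were lower and 6.97% higher in that comparison. Nuclear-encoded subunits of oxidative phosphorylation went the other way on assembly in iPSC. Of 82 tested, 23 were higher and 9 lower in the assembled iPSC part, with a median of 0.34. In the assembled TSC part, 2 of them were higher and 6 lower than in TSC alone, with a median of 0.13.

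In the assembled TSC part against the assembled iPSC part, 5 of 18 translation factors and 7 of 24 assembly factors were higher and none lower, against 16.5% higher and 10.5% lower over all genes. Of 17 aminoacyl-tRNA synthetases 1 was higher and 0 lower, and of 19 genes of mitochondrial DNA maintenance and transcription 4 were higher and 1 lower, the single-stranded DNA binding protein Ssbp1 (-1.16 ± 0.15). The higher factors included Mtif3, the initiation factor (1.41 ± 0.22), Taco1, an activator of cytochrome oxidase translation (1.41 ± 0.21), and Mterf4, a partner in large subunit assembly (1.07 ± 0.18). In cells cultured alone these 4 lists did not lean to 1 side. In the same order, 3, 6, 2 and 5 genes were higher in TSC alone than in iPSC alone, and 3, 6, 3 and 5 lower. Their medians there were -0.12, 0.01, 0.07 and -0.06, against -0.10 over all genes. Nuclear-encoded subunits of oxidative phosphorylation, the complexes served by these ribosomes, were higher in TSC alone for 26 of 82 genes and lower for 3, against 18.4% and 24% of all genes. They were higher in the assembled TSC part for 13 and lower for 5, with 16.5% and 10.5% over all genes, so that the higher share there was at the background.

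Cytosolic ribosomal proteins, also counted from a list under the deposited scaling alone, showed other counts. Of 85 tested, 54 were higher and 0 lower in the assembled TSC part than in TSC alone, and 43 were higher and 3 lower in the assembled iPSC part than in iPSC alone. Over all genes, 6.97% were higher and 10.6% lower on assembly in TSC, and 5.95% and 20.6% in iPSC. In TSC alone, 4 were higher and 35 lower than in iPSC alone, against 18.4% and 24% of all genes. The summed mitochondrial genes came to 0.0496 to 0.0906 of the summed cytosolic genes in TSC origin and to 0.0354 to 0.0556 in iPSC origin. The counts of the 2 families were not tested against each other, and the cytosolic family has many processed pseudogenes that can share its reads.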

How the data were processed

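RNA-seq of 16 mouse libraries was read from a single table of FPKM deposited by the authors, with 31663 entries (12 share a symbol with another) and 1 column per library. The tools, per the submitters' processing notes, are TopHat2 and CASAVA, and the builds hg19 and mm9, without their roles. Neither the program behind FPKM nor its annotation, strand setting or read totals are stated, so values carry no counting interval. Relative depth came from the steps of low values; 119 of 120 pairs of libraries lay within 0.1 log2 of a common scale.

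Values were taken as log2(FPKM + 1), a scale that understates the change of low genes. The filter kept genes that reached 1 FPKM in 2 or more libraries (13406; all 77 members passed). They were fitted with limma 3.58.1 (R 4.3.3) as 8 group means over 16 libraries with 8 residual degrees of freedom, a trend in eBayes, two-sided tests and Benjamini-Hochberg adjustment over all genes of each of 7 comparisons. The fit was tested on simulated data. Transcript length and GC content came from GENCODE by symbol, promoters from RefSeq (GRCm38.p6). Other steps used matplotlib 3.10.9, pandas 2.3.3, numpy 2.4.6 and Python 3.11.15.

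Each fit was repeated with quantile normalization, upper quartile rescaling, a pseudocount of 0.1, no filter, totals rescaled without predicted names, a correction for length and GC content (lowess span 0.3), a replicate block, only the libraries compared, each library left out, and the 2 libraries with outlying lineage markers left out. Genes were named by a rule: 12 whatever their result, the 4 highest and the 4 lowest, the 6 with the widest range, and in each comparison up to 8 per direction by adjusted p, or the 4 with the smallest p where fewer than 4 passed. Mrpl15, Mrps25, the promoter of Mrpl17 and the genes around Mrpl23 were chosen after their values were seen. The members and lists were chosen with earlier results of these data known.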

Additional observations from a re-analysis of the deposited data

Results flagged for a closer look

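The assembly effect differed between the cells of origin for 2 genes, by limma's interaction term. For Mrpl23 the assembled minus alone difference was 2.22 higher on the log2 scale in TSC than in iPSC, and for Mrps27 it was 1.14 higher. Both were close to the threshold. The Mrpl23 call was lost in 14 of 16 fits that left out a library, with adjusted p up to 0.1 without replicate 2 of the assembled iPSC part, and without the 2 libraries with outlying lineage markers (2.28, limma adjusted p = 0.0635). That of Mrps27 was lost in 10 of 16, with adjusted p up to 0.0897 without replicate 2 of iPSC alone.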

How the results depend on the processing

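Of 60 calls of named genes, each refitted under the alternatives (1498 results), none changed direction, 1269 kept the call and 229 lost it, and 29 calls held throughout. Counts of members called moved by more than 1.5 times as follows, and the cause was not tested. The shares of all genes called under these alternatives are not given here. Assembly in TSC (6) gave 17 with quantile normalization, 14 with upper quartile rescaling, 12 with rescaled totals, 2 without the 2 marker outliers and 2 with only the libraries compared. Assembly in iPSC (17) gave 31, 26 and 28 with upper quartile rescaling, rescaled totals and only the libraries compared, and its median of -0.05 was 0.18 with quantile normalization and 0.28 with upper quartile rescaling. The interaction (2) gave 1 with a pseudocount of 0.1, 1 without the filter, 1 with quantile normalization, 1 with rescaled totals, and 0 with upper quartile rescaling or the length and GC correction; its median of 0.15 was -0.05 with upper quartile rescaling. TSC against iPSC in assembled parts (25) gave 16 with only the libraries compared. BMP4 in TSC (1) gave 5 with quantile normalization, 4 with rescaled totals, 3 with the length and GC correction, and 0 without the 2 marker outliers or with only the libraries compared. BMP4 in iPSC gave 0 under every alternative. Leaving out single libraries, the counts ranged over 2 to 18, 10 to 22, 0 to 2, 16 to 26, 9 to 27, 0 to 4 and 0 to 0 for assembly in TSC, assembly in iPSC, the interaction, TSC against iPSC alone and assembled, and BMP4 in TSC and iPSC. In that order the medians ranged over -0.07 to 0.23, -0.13 to 0.08, 0.03 to 0.25, 0.08 to 0.31, 0.19 to 0.37, -0.02 to 0.14 and -0.06 to 0.10. Whether libraries with the same replicate number share a structure or preparation is not stated, and their deviations gave no sign of pairing: over 28 pairs of groups they correlated between -0.185 and 0.119, with 2 above 0.1. A replicate block changed the count only for TSC against iPSC in assembled parts, to 24 from 25. Depth is known only as a relative value.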
